A study of Mus musculus with 32 samples.

Results

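The comparison covered the 12 libraries of IL-1b-treated floxed chondrocytes among the 32 RNA-seq libraries of the series, and it took the difference between Cre virus and GFP virus in NFKBIZ flox cells minus the mean of the same difference in LDHA flox and NAMPT flox cells. The cells were primary sternal chondrocytes of newborn C57BL/6 mice, used without passage. In each of the 3 lines a floxed allele of Nfkbiz, Ldha or Nampt can be removed by Cre recombinase. The cells received an adenovirus carrying eGFP (GFP) or Cre with eGFP (Cre) and then IL-1b at 10 ng/mL for 24 h, which makes 6 groups of 2 libraries. All 12 cultures were therefore infected and stimulated, and no library of wild-type cells with Cre virus was analysed here. The study's methods also describe a Cre virus without eGFP for another assay, and the labels do not say which was used in each line. The 2 libraries of a group were not said to come from separate cultures, so that p-values measure the spread between these libraries, which may be technical. LDHA flox and NAMPT flox have 1 library from each of the 2 library sets that the titles number, whereas the NFKBIZ flox libraries all come from the second set, so that list medians are also given from the second set alone, where LDHA flox and NAMPT flox have 1 library per group.

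Nfkbiz encodes IκB-ζ, a nuclear member of the IκB family that is induced by IL-1 and Toll-like receptor signals and works with NF-κB at the promoters of late inflammatory genes such as Lcn2 and Il6. Ldha encodes lactate dehydrogenase A, which turns pyruvate into lactate at the end of glycolysis. Nampt encodes the rate-limiting enzyme of NAD salvage. In chondrocytes IL-1 is known to raise cytokines, nitric oxide and prostaglandin synthesis and matrix-degrading enzymes, and to lower the genes of cartilage matrix. Subtracting the Cre effect of other lines from that of NFKBIZ flox is meant to remove what the virus itself does, which requires that the virus did the same in each line. It also subtracts what the loss of Ldha or Nampt did in the other lines. With no wild-type cells given Cre virus here, that part and the virus effect cannot be told apart.

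Levels are given as CPM, the counts of a gene scaled to a common library size and normalized over all 32 libraries. Differences are on the log2 scale with their standard error (SE) from the fit. The Cre effect is Cre minus GFP within a line, and the line difference is the Cre effect of NFKBIZ flox minus the mean Cre effect of LDHA flox and NAMPT flox. A gene was called at an adjusted p of 0.05 or less in edgeR's quasi-likelihood test with Benjamini-Hochberg adjustment over all genes tested. Library totals lay between 15830658 and 36421810 counts. The library of NFKBIZ flox Cre + IL-1b replicate 2 stood apart, with mitochondrial genes at 0.538% of its counts (1.391% to 1.868% in the other 11) and the non-coding RNA Gm26917 at 11.865% (6.92% to 9.361%). The summed level of 11 chondrocyte markers was between 13900 and 39600 CPM in all 12 libraries. That of 12 macrophage and leukocyte markers was between 26.8 and 69.7 CPM. Fibroblast and perichondrium markers with GFP summed to between 789 and 822 CPM in NFKBIZ flox, 4410 and 4580 CPM in LDHA flox and 3850 and 3900 CPM in NAMPT flox, so that the cultures differed between lines before any Cre effect, and the part of this in the results was not tested. In these bulk samples fewer cells of a type and less RNA per cell cannot be told apart.

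Nfkbiz (chr16:55811375-55838899, minus strand, GRCm38) itself fell after Cre in all 3 lines. Its levels were 235 and 229 CPM with GFP and 29.5 and 32.3 CPM with Cre in NFKBIZ flox. In LDHA flox the same levels were 177 and 164 CPM with GFP and 69.7 and 66.9 CPM with Cre, and in NAMPT flox they were 202 and 204 CPM with GFP and 67.7 and 60.8 CPM with Cre. The GFP and Cre libraries did not overlap in any line, and the Cre libraries of NFKBIZ flox were the lowest. The Cre effects were -2.90 in NFKBIZ flox, -1.30 in LDHA flox and -1.66 in NAMPT flox, which left a line difference of -1.42 ± 0.10 (SE, adjusted p = 9.92e-08). Reads on the undeleted exons of a floxed gene still count, so that the level of Nfkbiz need not reach 0. Ldha and Nampt are the deleted genes of the other lines and enter the line difference with a positive sign by construction. Ldha stood at 81.3 and 72.9 CPM in LDHA flox Cre against 1557 and 1547 CPM with GFP, and its line difference was 1.53 ± 0.10 (SE). Nampt stood at 5.70 and 4.63 CPM in NAMPT flox Cre against 67.4 and 68.4 CPM with GFP, and its line difference was 1.15 ± 0.17 (SE). Ldha and Nampt also fell in NFKBIZ flox, by 0.80 and 0.96 on the log2 scale.

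The line difference was called for 5231 of 16472 genes (31.8%), of which 2602 were higher (15.8%) and 2629 lower (16%) in NFKBIZ flox. The Cre effect alone was called for 3338 genes in NFKBIZ flox (20.3%; 10.5% higher and 9.79% lower), 5379 in LDHA flox (32.7%; 16.5% higher and 16.1% lower) and 7329 in NAMPT flox (44.5%; 22.3% higher and 22.2% lower). In all 12 libraries the line that lost Nfkbiz thus had the fewest genes called after Cre. In the second library set alone, with 1 library per group in LDHA and NAMPT flox, NFKBIZ flox had more than LDHA flox. The genes of the line difference often moved further in the other lines. Among the 2629 lower genes the NFKBIZ flox term was the larger one in 832 (31.6%) and the mean of the other lines in 1797 (68.4%). Among the 2602 higher genes these numbers were 843 (32.4%) and 1759 (67.6%). The median line difference of the lower genes, -0.80, was made of a median of -0.18 in NFKBIZ flox and 0.58 in the other lines. For the higher genes the median of 0.83 was made of 0.24 in NFKBIZ flox and -0.56 in the other lines. These shares describe the arithmetic of the contrast, whose terms share libraries with it, and were not tested. A stricter count, chosen after values were seen, took genes called in NFKBIZ flox, called against LDHA flox alone and against NAMPT flox alone, and with a larger Cre effect than either line in size. It held 469 lower genes (17.8% of those called lower) and 366 higher genes (14.1%). Without NFKBIZ flox Cre + IL-1b replicate 2 it held 492 lower and 336 higher genes, of which 377 and 268 were the same genes. By contrast 803 lower and 757 higher genes were called against each line alone and had a Cre effect that was called in both other lines and not in NFKBIZ flox. Without either NFKBIZ flox GFP + IL-1b library the count of Cre effects in NFKBIZ flox dropped. It rose without NFKBIZ flox Cre + IL-1b replicate 1 and dropped without replicate 2 of that group.

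**Figure D1:**
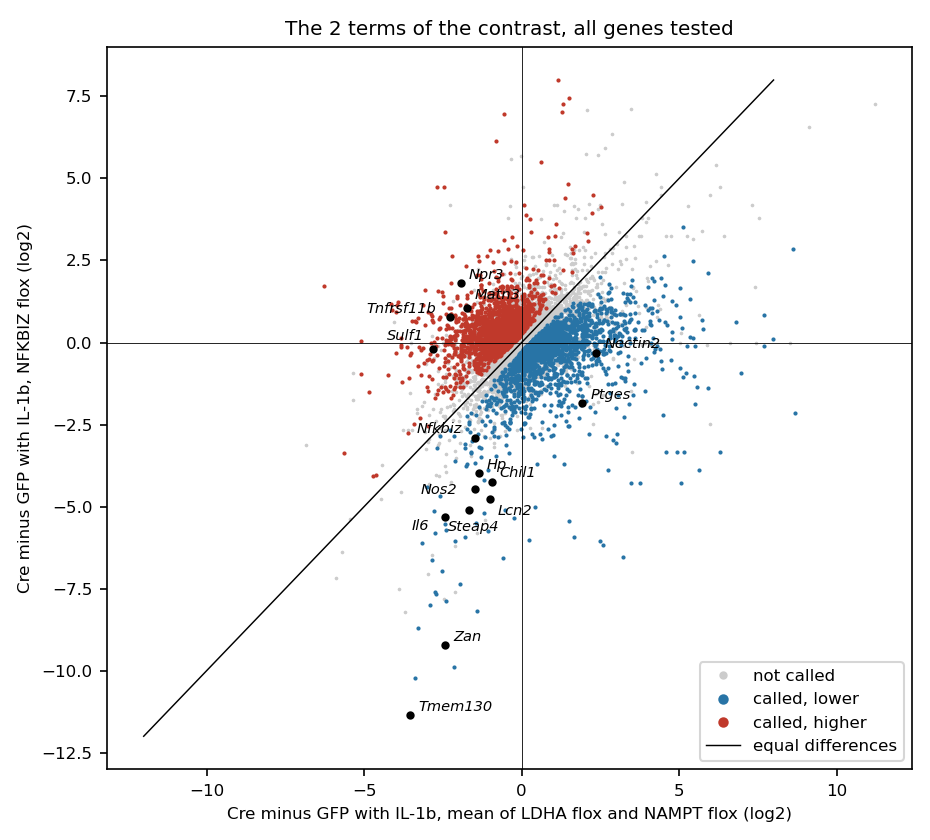
The 2 terms of the line difference for all 16472 genes tested, with the mean Cre effect of LDHA flox and NAMPT flox on the horizontal axis and the Cre effect of NFKBIZ flox on the vertical axis, both log2. Colours mark the 2629 genes called lower and the 2602 called higher, the diagonal marks equal Cre effects, and many coloured points lie near the horizontal line at 0, where only the other lines moved.

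Genes that are known from other cell types to need IκB-ζ were lower in the line difference, and the acute-phase genes Lcn2, Saa3, Hp and Steap4 were among them or beside them. Of 13 such genes tested, 8 were lower (61.5%) and none higher, with a median of -1.47 beside 0.01 over all genes tested. Over all genes tested 16% were lower and 15.8% higher in the line difference, and each list count below stands beside these shares. Their median Cre effect was -3.21 in NFKBIZ flox, -1.09 in LDHA flox and -1.22 in NAMPT flox. In the second library set alone the median line difference of this list was -1.87, that of the chemokines described below was -1.34 and that of cartilage matrix genes was 1.10. Csf2 did not pass the filter on low counts and was not tested. Of 27 acute-phase and complement genes, 13 were lower and 5 higher, with a median of -1.01. Without NFKBIZ flox Cre + IL-1b replicate 2 the counts were 7 lower for the first list and 14 lower and 5 higher for the second. Both lists were chosen with earlier results of these data in view, as were the other lists below, so that their directions are no separate evidence. The second list also shares Lcn2, Saa3, S100a8 and S100a9 with the first.

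Lcn2 (chr2:32384633-32387797, minus strand), which encodes the iron-siderophore binding protein lipocalin 2, stood at 7338 and 7528 CPM with GFP and at 323 and 224 CPM with Cre in NFKBIZ flox. It stood at 3490 and 3479 CPM with GFP and 1545 and 1684 CPM with Cre in LDHA flox, and at 2832 and 2923 CPM with GFP and 1469 and 1530 CPM with Cre in NAMPT flox. NFKBIZ flox thus had the highest GFP libraries and the lowest Cre libraries, with no overlap between any of the groups of this line and the others. The line difference was -3.74 ± 0.16 (SE, adjusted p = 7.78e-10), a 13.4-fold larger fall. Chil1, which encodes a secreted chitinase-like glycoprotein of inflamed cartilage, went from 6074 and 6220 CPM to 350 and 298 CPM in NFKBIZ flox. In LDHA flox it went from 1675 and 1696 CPM to 835 and 842 CPM, and in NAMPT flox from 1020 and 977 CPM to 530 and 520 CPM. Its line difference was -3.28 ± 0.11 (SE, adjusted p = 8.09e-11), and the lowest libraries were again those of NFKBIZ flox with Cre. Hp, which encodes the haemoglobin scavenger haptoglobin, went from 1950 and 1917 CPM to 116 and 128 CPM in NFKBIZ flox. The Cre libraries of LDHA flox held 414 and 396 CPM of Hp and those of NAMPT flox 259 and 266 CPM. The line difference of Hp was -2.62 ± 0.10 (SE). Saa3, a serum amyloid A of local inflammation, went from 3634 and 3734 CPM to 225 and 176 CPM in NFKBIZ flox, and its line difference was -2.99 ± 0.14 (SE). Saa3 belongs to a gene family, and whether reads were split among its members was not tested. Steap4, a metalloreductase, went from 746 and 743 CPM to 25.7 and 17.6 CPM, with a line difference of -3.41 ± 0.15 (SE). For Saa3 and Steap4 as for Lcn2, Chil1 and Hp, both Cre libraries of NFKBIZ flox were below the 4 Cre libraries of the other lines, and both GFP libraries were above the 4 others. Il6, which encodes interleukin 6, had GFP levels of 33.3 and 33.6 CPM in NFKBIZ flox, 22.2 and 23.7 CPM in LDHA flox and 31.0 and 29.9 CPM in NAMPT flox. With Cre it was at 0.645 and 1.00 CPM in NFKBIZ flox, 5.26 and 5.92 CPM in LDHA flox and 4.26 and 4.05 CPM in NAMPT flox. Il6 fell in all 3 lines, and its line difference was -2.89 ± 0.21 (SE, adjusted p = 1.23e-07).

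**Figure D2:**
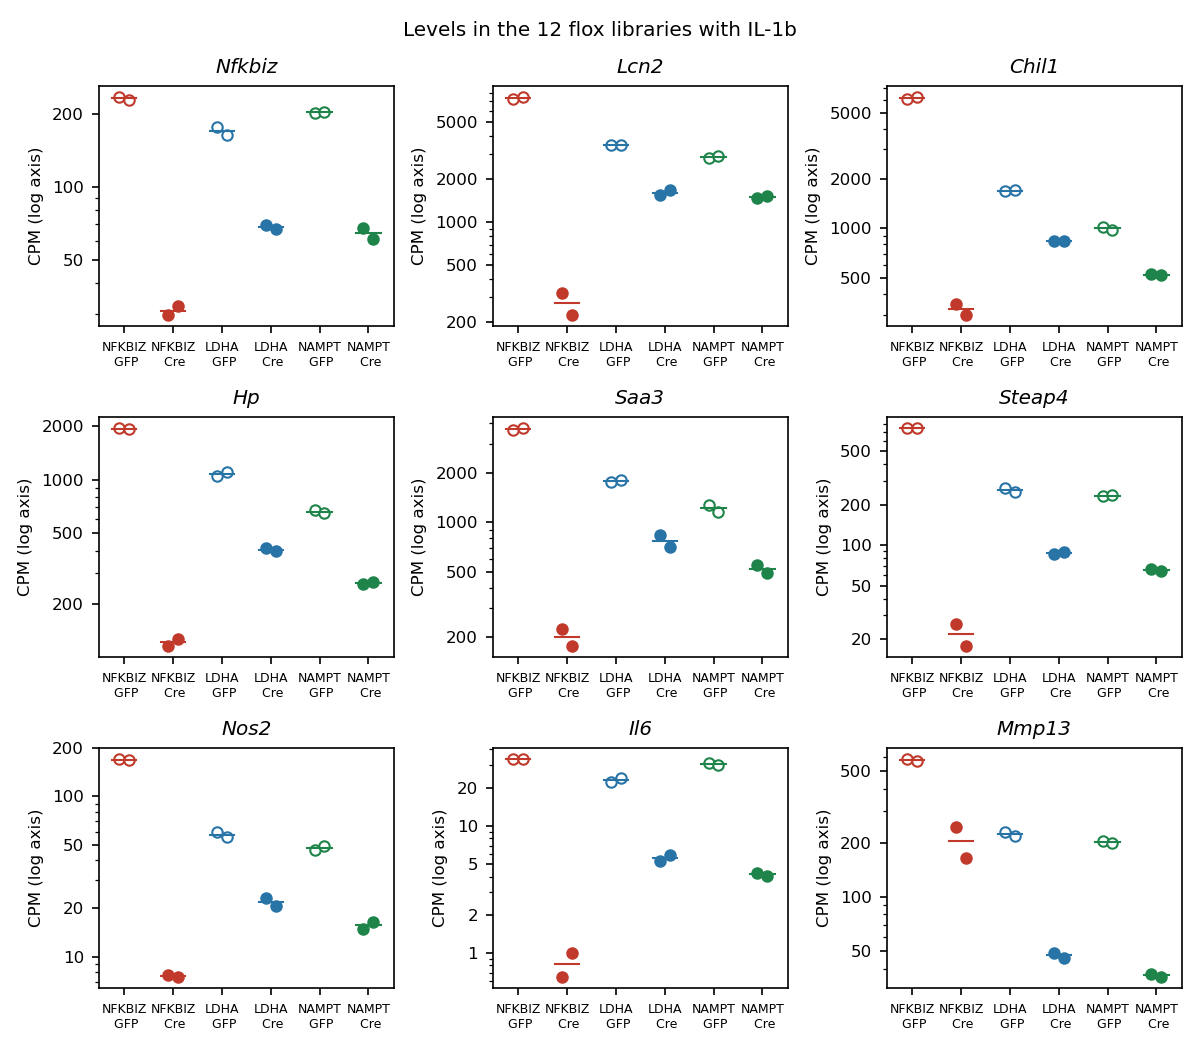
Levels of 9 genes in the 12 IL-1b libraries, in CPM on log axes, with open points for GFP, filled points for Cre, a bar for the mean of the 2 libraries, and red, blue and green for NFKBIZ, LDHA and NAMPT flox. In 8 of the 9 panels the filled red points are the lowest, whereas Mmp13 in NFKBIZ flox Cre, at 243 and 164 CPM, lies above the Cre points of the other lines.

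The promoters of Lcn2, Saa3, Il6 and Steap4 are printed because IκB-ζ acts through NF-κB and C/EBP sites in other cells. They are a choice from the genes that moved together, and every printed promoter holds a match. Chil1, which moved with them and holds none, is not printed, and Steap4 is not on the list of genes known to need IκB-ζ. Each run holds 250 bases before and 50 after the transcription start in RefSeq (build GRCm38.p6), 5′ to 3′ on the gene's strand. Capitals mark matches on either strand to one form of the NF-κB site, GGG then any 3 bases then TTCC, or to TTGCNNAA, one form of the C/EBP site.
Lcn2 promoter, chr2:32387690-32387989, minus strand: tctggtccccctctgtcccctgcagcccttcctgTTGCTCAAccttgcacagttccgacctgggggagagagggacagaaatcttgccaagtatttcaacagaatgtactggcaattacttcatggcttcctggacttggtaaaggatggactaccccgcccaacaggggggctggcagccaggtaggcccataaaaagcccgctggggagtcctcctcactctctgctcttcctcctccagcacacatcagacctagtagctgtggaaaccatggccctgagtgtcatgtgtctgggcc
Saa3 promoter, chr7:46715627-46715926, minus strand: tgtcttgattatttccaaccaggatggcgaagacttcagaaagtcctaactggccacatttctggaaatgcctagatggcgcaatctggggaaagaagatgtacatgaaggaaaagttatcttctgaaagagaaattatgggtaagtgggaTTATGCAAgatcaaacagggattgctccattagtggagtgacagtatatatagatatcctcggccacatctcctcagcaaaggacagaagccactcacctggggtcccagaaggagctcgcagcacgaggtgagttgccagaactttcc
Il6 promoter, chr5:30012864-30013163, plus strand: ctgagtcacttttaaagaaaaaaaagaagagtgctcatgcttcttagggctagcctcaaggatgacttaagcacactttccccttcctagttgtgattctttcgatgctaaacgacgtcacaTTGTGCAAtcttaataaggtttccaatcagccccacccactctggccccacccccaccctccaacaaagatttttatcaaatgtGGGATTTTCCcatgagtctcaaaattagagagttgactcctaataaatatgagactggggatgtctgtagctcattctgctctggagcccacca
Steap4 promoter, chr5:7960222-7960521, plus strand: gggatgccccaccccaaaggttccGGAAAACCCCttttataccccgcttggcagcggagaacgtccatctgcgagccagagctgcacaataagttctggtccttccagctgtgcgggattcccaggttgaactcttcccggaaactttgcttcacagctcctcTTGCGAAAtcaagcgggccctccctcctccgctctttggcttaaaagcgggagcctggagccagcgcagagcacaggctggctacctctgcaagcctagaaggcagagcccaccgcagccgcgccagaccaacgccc
Lcn2 held a C/EBP match 216 bases before the start and Saa3 one 99 bases before it, each with no NF-κB match in this window. Il6 held a C/EBP match 128 bases and an NF-κB match 44 bases before the start, and Steap4 held them 87 and 226 bases before it. Of the 14 genes known to need IκB-ζ, 10 were in the promoter table, of which 5 held the C/EBP letters and 2 the NF-κB letters. The 5 included Csf2, which was not tested, and S100a9, which was not called, while Il12b, which was called lower, held neither form. Over 32851 promoters of the same length the shares were 10.8% for the C/EBP letters and 5.56% for the NF-κB letters, and 0.493% held both. None of the 6 promoters found for the 10 lower genes of smallest p held either form. Among these was Chil1, which moved with the genes printed here. Hp, Nos2 and Pcdh1 were among those not in the table. A match is a description of letters and not a site of binding, and these letters miss other forms of both sites.

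Chemokine genes were mostly lower in NFKBIZ flox than the other lines would give, with 52.9% lower beside 16% over all genes. The share that was higher, 17.6%, was near the 15.8% over all genes. Of 17 tested, 9 were lower and 3 higher, with a median of -1.35, and the same numbers were called without NFKBIZ flox Cre + IL-1b replicate 2. Cxcl1, a neutrophil attractant, fell in every line, from 581 and 529 CPM to 48.6 and 40.9 CPM in NFKBIZ flox, from 388 and 413 CPM to 91.9 and 92.8 CPM in LDHA flox, and from 266 and 262 CPM to 58.2 and 60.8 CPM in NAMPT flox. The line difference of Cxcl1 was -1.50 ± 0.11 (SE). Cx3cl1, the membrane-bound fractalkine, moved in opposite directions, with Cre effects of -0.90 in NFKBIZ flox, 0.45 in LDHA flox and 0.69 in NAMPT flox. Cxcl12, a homeostatic chemokine of stromal cells, was higher by 1.62 ± 0.13 (SE), and its Cre effect was 0.41 in NFKBIZ flox against -1.19 and -1.25 in LDHA and NAMPT flox.

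Among cytokines and their receptors, 12 of 30 were lower (40%) and 6 higher (20%), with a median of -0.34. Over all genes tested 16% were lower and 15.8% higher, so that the higher share was near that of all genes. Tnfrsf11b, which encodes the RANKL decoy receptor osteoprotegerin, was at 78.4 and 77.6 CPM with GFP and 137 and 129 CPM with Cre in NFKBIZ flox. It fell to 16.4 and 16.5 CPM in LDHA flox and to 7.47 and 8.34 CPM in NAMPT flox, from 52.9 and 47.6 CPM and from 66.1 and 56.2 CPM. The Cre groups of the 3 lines therefore did not overlap, and the line difference was 3.05 ± 0.12 (SE, adjusted p = 3.06e-10). Il1rl1, which encodes the IL-33 receptor, had a line difference of 2.03 ± 0.10 (SE) made of 0.39 in NFKBIZ flox and falls of 1.53 and 1.75 on the log2 scale in LDHA and NAMPT flox. Of 24 NF-κB subunits, inhibitors and regulators, 10 were lower (41.7%) and 4 higher (16.7%, again near the share over all genes), with a median of -0.06. Irak3, a brake on IL-1 receptor signalling, was lower by 1.87 ± 0.16 (SE on the log2 scale), and Zc3h12a, an RNase that degrades Il6 mRNA, was lower by 1.09 ± 0.10 (SE). Both fell in NFKBIZ flox, Irak3 from 44.5 and 50.2 CPM to 10.1 and 7.35 CPM and Zc3h12a from 114 and 109 CPM to 40.5 and 40.7 CPM. Nfkbia, which encodes the cytoplasmic inhibitor IκBα, instead had Cre effects of -0.24 in NFKBIZ flox and 0.72 and 0.96 in the other lines, and its line difference was -1.08 ± 0.10 (SE).

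Nitric oxide and prostaglandin genes had a larger share of lower calls than any other list described here, 11 of 15 tested, with 2 higher and a median of -1.90. Their median Cre effect was -0.86 in NFKBIZ flox, 0.14 in LDHA flox and 0.43 in NAMPT flox. Of the lower genes, 5 were in the stricter count given above. The same counts, 11 lower and 2 higher, were found without NFKBIZ flox Cre + IL-1b replicate 2. Nos2, the inducible nitric oxide synthase, was at 171 and 168 CPM with GFP and 7.69 and 7.43 CPM with Cre in NFKBIZ flox. It was at 59.9 and 55.5 CPM with GFP and 23.1 and 20.7 CPM with Cre in LDHA flox, and at 46.4 and 49.3 CPM with GFP and 14.9 and 16.5 CPM with Cre in NAMPT flox. The highest and the lowest libraries both belonged to NFKBIZ flox, and the line difference was -2.99 ± 0.12 (SE, adjusted p = 4.5e-10). Ptges, the inducible prostaglandin E synthase, split the lines. Its level dropped from 37.7 and 34.7 CPM to 10.2 and 9.78 CPM in NFKBIZ flox, while it went up from 42.3 and 40.7 CPM to 133 and 129 CPM in LDHA flox and from 49.0 and 41.8 CPM to 206 and 198 CPM in NAMPT flox. The line difference of Ptges was -3.77 ± 0.11 (SE, adjusted p = 7.48e-11), and each of its 3 Cre effects was called. Ptgs1, the constitutive cyclooxygenase, had a line difference of -2.09 ± 0.13 (SE) although its Cre effect in NFKBIZ flox was 0.13, since it was 2.09 in LDHA flox and 2.36 in NAMPT flox.

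Glycolysis and NRF2-target genes fell more in NFKBIZ flox. Of 23 glycolysis and lactate genes, 15 were lower and 1 higher, the higher one being Ldha, with a median of -0.47. Their median Cre effect was -0.69 in NFKBIZ flox, -0.13 in LDHA flox and 0.02 in NAMPT flox, and without NFKBIZ flox Cre + IL-1b replicate 2 16 were lower. Pfkp, a phosphofructokinase, went from 143 and 145 CPM to 64.8 and 71.3 CPM in NFKBIZ flox, against 109 and 102 CPM to 122 and 122 CPM in LDHA flox and 91.7 and 83.2 CPM to 122 and 123 CPM in NAMPT flox. Its line difference was -1.44 ± 0.10 (SE). Pfkfb3, which makes the activator of phosphofructokinase, had a line difference of -1.47 ± 0.10 (SE). Of 21 NRF2 targets, 12 were lower and 1 higher, with a median of -0.33. NRF2 is the transcription factor of the oxidant response. Of these genes 19 fell in NFKBIZ flox, where 9.79% of all genes did, and 17 fell in each of LDHA and NAMPT flox, where 16.1% and 22.2% of all genes did. Srxn1, which repairs oxidized peroxiredoxins, went from 194 and 197 CPM to 45.8 and 41.9 CPM in NFKBIZ flox, from 257 and 263 CPM to 135 and 133 CPM in LDHA flox, and from 309 and 291 CPM to 186 and 178 CPM in NAMPT flox. The line differences were -1.32 ± 0.09 (SE) for Srxn1, -0.86 ± 0.11 (SE) for the glutathione reductase gene Gsr and -0.72 ± 0.12 (SE) for the transketolase gene Tkt. Of 19 genes of NAD synthesis and use, 6 were lower (31.6%) and 2 higher (10.5%), beside 16% and 15.8% over all genes. Nampt, the deleted gene of NAMPT flox, was among the higher ones. Bst1, an ectoenzyme that uses NAD, was at 0.258 and 0.304 CPM in the NFKBIZ flox Cre libraries and between 11.1 and 12.0 CPM in the Cre libraries of the other lines, and the NAD-dependent deacetylase gene Sirt2 had a line difference of -0.75 ± 0.10 (SE) with a Cre effect of 0.06 in NFKBIZ flox.

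Cartilage matrix genes were higher in the line difference, and here the movement lay in the other lines. Of 34 matrix and chondrocyte regulator genes, 26 were higher and 2 lower, with a median of 1.08. Their Cre effect had a median of 0.08 in NFKBIZ flox, with 9 higher and 6 lower, and of -0.83 and -0.82 in LDHA and NAMPT flox, with 25 and 24 lower, where 16.1% and 22.2% of all genes were lower. Matn3, which encodes the matrix adaptor matrilin 3, went from 65.7 and 58.4 CPM to 133 and 124 CPM in NFKBIZ flox. It went from 45.1 and 46.6 CPM to 14.5 and 12.5 CPM in LDHA flox and from 38.0 and 38.7 CPM to 10.9 and 11.7 CPM in NAMPT flox. Its Cre libraries thus lay above the GFP libraries in NFKBIZ flox and below them in both other lines, and the line difference was 2.81 ± 0.12 (SE, adjusted p = 7.78e-10). Ucma, which encodes a secreted protein of unmineralized cartilage, had a line difference of 2.79 ± 0.13 (SE), and Col27a1, a fibrillar collagen gene, one of 2.01 ± 0.10 (SE). The chondrocyte markers are all members of this list of 34 genes, so that the direction of their sum is no separate evidence. Their summed level went from 30700 and 33100 CPM with GFP to 37000 and 39600 CPM with Cre in NFKBIZ flox, in ranges over libraries. In LDHA flox that sum was 27000 to 27400 CPM with GFP and 13900 to 14800 CPM with Cre, and in NAMPT flox it was 26500 to 27200 CPM with GFP and 14900 to 15200 CPM with Cre. Fibroblast and perichondrium markers moved in the same direction, with 6 of 10 higher and 1 lower in the line difference and a median of 0.78. Their sum with Cre was 846 to 943 CPM in NFKBIZ flox, 2830 to 2870 CPM in LDHA flox and 2430 to 2460 CPM in NAMPT flox, below the GFP libraries in the last 2 lines and above them in NFKBIZ flox. The part of these changes in the matrix genes was not tested.

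Mmp13, the collagenase of cartilage breakdown, had a line difference in the opposite direction to Lcn2, Saa3, Hp, Steap4, Chil1 and Il6. As given above, 5 acute-phase and complement genes and 3 chemokines were also higher in the line difference. Mmp13 fell in every line, in NFKBIZ flox from 584 and 567 CPM to 243 and 164 CPM. Its levels went from 228 and 219 CPM to 48.9 and 45.9 CPM in LDHA flox. In NAMPT flox they went from 205 and 200 CPM to 37.5 and 35.7 CPM. The Cre effect was -1.49 in NFKBIZ flox, -2.21 in LDHA flox and -2.47 in NAMPT flox, and the line difference was 0.85 ± 0.16 (SE, adjusted p = 0.000875). Without NFKBIZ flox Cre + IL-1b replicate 1 it was 0.54. Without replicate 2 of that group, the library that stood apart, it was 1.10. Of 30 metalloproteinases and inhibitors, 15 were higher (50%) and 7 lower (23.3%), beside 15.8% and 16% over all genes, with a median of 0.35. Mmp16, a membrane-type metalloproteinase, was higher by 2.34 ± 0.15 (SE) with Cre effects of 0.25, -1.86 and -2.32 in NFKBIZ, LDHA and NAMPT flox. Adamts7, which cleaves cartilage oligomeric matrix protein, was lower by 1.98 ± 0.13 (SE on the log2 scale), with Cre effects of 1.59 and 2.49 in the other lines, beside 0.06 in NFKBIZ flox. The gelatinase gene Mmp2 had a line difference of -1.17 ± 0.12 (SE) and fell in NFKBIZ flox by 0.67.

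Genes of DNA replication and mitosis were higher, and this time the movement lay in NFKBIZ flox. Of 34 tested, 23 were higher and 2 lower, with a median of 0.54 and with 22 higher and 3 lower without NFKBIZ flox Cre + IL-1b replicate 2. Their median Cre effect was 0.48 in NFKBIZ flox, -0.09 in LDHA flox and -0.12 in NAMPT flox. Mki67, a marker of cycling cells, went from 86.5 and 72.9 CPM to 170 and 171 CPM in NFKBIZ flox. It went from 422 and 340 CPM to 363 and 330 CPM in LDHA flox and from 396 and 335 CPM to 318 and 283 CPM in NAMPT flox. The NFKBIZ flox libraries were therefore the lowest of all with either virus, and those of the other lines overlapped between viruses in LDHA flox. The line difference of Mki67 was 1.31 ± 0.14 (SE), that of Cdc20, an activator of the anaphase-promoting complex, was 1.18 ± 0.11 (SE), and that of the cyclin gene Ccna2 was 1.37 ± 0.13 (SE). Of 25 genes of the integrated stress response, the programme of ATF4, 14 were higher (56%) and 2 lower (8%), beside 15.8% and 16% over all genes. Their median Cre effects were 0.07 in NFKBIZ flox and -0.54 and -0.53 in LDHA and NAMPT flox. Trib3, a pseudokinase, had a line difference of 1.30 ± 0.09 (SE), Nupr1, a small stress protein, one of 1.43 ± 0.12 (SE), and Mthfd2, a mitochondrial folate enzyme, one of 0.68 ± 0.10 (SE). In none of these 3 was the Cre effect in NFKBIZ flox larger than 0.27 in size.

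Interferon-stimulated genes and p53 targets gave no common direction in the line difference. Of 29 interferon-stimulated genes, 3 were higher there (10.3%) and 1 lower (3.45%), and 25 were not called. Both shares were below the 15.8% and 16% over all genes tested. Their Cre effect was called higher for 8 in NFKBIZ flox, 10 in LDHA flox and 9 in NAMPT flox, and lower for none. Over all genes the Cre effect was higher for 10.5%, 16.5% and 22.3%. Bst2, an antiviral tether, was lower by 1.06 ± 0.23 (SE on the log2 scale). Parp14 and Ifit2 were higher by 1.19 ± 0.36 (SE, adjusted p = 0.0192) and 0.91 ± 0.27 (SE, adjusted p = 0.0198). With LDHA flox as the only reference neither was called in the same edgeR test (adjusted p = 0.069 and 0.143). With NAMPT flox as the only reference both were called (adjusted p = 0.0265 and 0.0144). Parp14 was not called without NFKBIZ flox GFP + IL-1b replicate 1 (adjusted p = 0.0817), without replicate 2 of that group (adjusted p = 0.0567) or without NFKBIZ flox Cre + IL-1b replicate 1 (adjusted p = 0.0631). Ifit2 was not called without NFKBIZ flox Cre + IL-1b replicate 1 (adjusted p = 0.119) or NFKBIZ flox GFP + IL-1b replicate 2 (adjusted p = 0.117). Among 28 p53 targets the Cre effect was higher for 13 and lower for 2 in NFKBIZ flox. The same counts were 15 and 0 in LDHA flox and 14 and 6 in NAMPT flox. In the line difference 8 were higher (28.6%) and 7 lower (25%), with a median of -0.09. Without NFKBIZ flox GFP + IL-1b replicate 1 the lower ones were 4. Plk3, a stress kinase, had a line difference of -1.46 ± 0.18 (SE), while Gtse1, a mitotic regulator, was higher by 0.81 ± 0.11 (SE) and Polk, a translesion polymerase, by 0.64 ± 0.11 (SE).

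**Figure D3:**
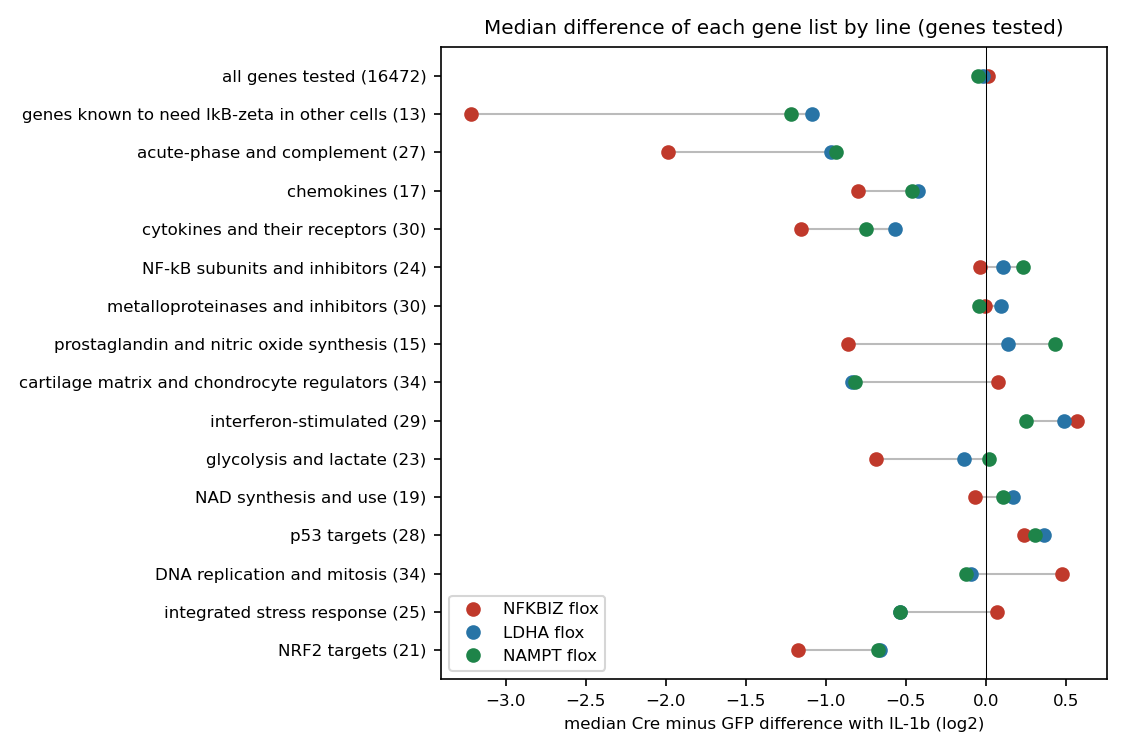
Median Cre effect with IL-1b of each gene list (log2, horizontal axis) in NFKBIZ flox (red), LDHA flox (blue) and NAMPT flox (green), with the number of genes tested after each name. The red point lies far to the left for the genes known to need IκB-ζ, at -3.21, and near 0 for cartilage matrix, where the other lines lie at -0.83 and -0.82.

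Among the 20 genes of smallest p, several were carried by the other lines almost alone. Sulf1, which edits heparan sulfate outside the cell, was at 126 and 119 CPM with GFP and 102 and 111 CPM with Cre in NFKBIZ flox, and fell from 100 and 94.6 CPM to 16.4 and 16.3 CPM in LDHA flox and from 109 and 109 CPM to 12.9 and 12.7 CPM in NAMPT flox. Its line difference was 2.63 ± 0.10 (SE). Nectin2, a cell adhesion molecule, stayed between 13.4 and 17.7 CPM in NFKBIZ flox and was between 98.9 and 123 CPM in the Cre libraries of the other lines, with a line difference of -2.67 ± 0.11 (SE). The imprinted gene Mest and the netrin receptor gene Unc5c were alike in having Cre effects of -0.06 and -0.21 in NFKBIZ flox and line differences of 2.20 ± 0.10 and 2.24 ± 0.10 (SE). In Sorbs2, Fat4 and the imprinted non-coding RNA H19 the Cre effects in NFKBIZ flox were 0.34, 0.62 and 0.61, and the line differences were 2.44 ± 0.11, 2.69 ± 0.11 and 2.41 ± 0.10 (SE). Others moved in opposite directions. Npr3, the clearance receptor of natriuretic peptides, went from 29.3 and 32.6 CPM to 112 and 104 CPM in NFKBIZ flox, from 13.6 and 12.9 CPM to 4.80 and 4.02 CPM in LDHA flox, and from 17.1 and 16.6 CPM to 3.32 and 3.46 CPM in NAMPT flox. Its line difference, 3.75 ± 0.13 (SE, adjusted p = 2.59e-10), had the smallest p among the higher genes. Pcdh1, a protocadherin, fell by 1.95 on the log2 scale in NFKBIZ flox and rose in both other lines, with a line difference of -3.66 ± 0.12 (SE). Fam20c, a kinase of secreted phosphoproteins, fell by 2.01 in NFKBIZ flox and had Cre effects of 0.26 and 0.54 in the others. The microfibril gene Fbn2 had Cre effects of 1.31, -0.91 and -1.03 in NFKBIZ, LDHA and NAMPT flox. Pcdh1, Zan, Nectin2, Fat4, H19, Sorbs2, Mest and Unc5c overlap a gene on the opposite strand, and so do Irak3, Mmp16, Adamts7, Pfkp, Bst1, Sirt2, Cdc20, Ccna2, Plk3 and Polk among the list genes above. Since the counting is not said to use strand, reads of such partners cannot be told apart.

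Tmem130 and Zan, both among the 10 lower genes of smallest p, bear on whether the virus did the same in each line. After values were seen, all genes were searched for those under 1 CPM in all 8 uninfected wild-type libraries and over 5 CPM in all 12 GFP libraries, with and without IL-1b. There were 4, Tmem130, Zan, Bcas1 and Nat8f5. With IL-1b Tmem130 was at 1421 and 1332 CPM with GFP and 0.687 and 0.348 CPM with Cre in NFKBIZ flox. It was at 1300 and 1629 CPM with GFP and 120 and 130 CPM with Cre in LDHA flox, and at 1955 and 2036 CPM with GFP and 172 and 171 CPM with Cre in NAMPT flox. The GFP groups of NFKBIZ and LDHA flox overlapped and that of NAMPT flox was higher, but the Cre libraries of NFKBIZ flox lay near the uninfected level and those of the other lines far above it. The line difference was -7.82 ± 0.21 (SE, adjusted p = 2.94e-11). Zan had the same pattern, at 0.301 and 0.391 CPM in NFKBIZ flox Cre, 44.6 and 44.9 CPM in LDHA flox Cre and 66.0 and 57.4 CPM in NAMPT flox Cre. Bcas1 was at 1.29 and 2.13 CPM in NFKBIZ flox Cre and between 16.5 and 21.6 CPM in the Cre libraries of the other lines, and Nat8f5 was at 0.344 and 0.261 CPM and between 13.8 and 21.7 CPM. Without IL-1b the order was the same, with Tmem130 at 0.183 and 0.092 CPM in NFKBIZ flox Cre, 14.3 and 13.4 CPM in LDHA flox Cre and 26.0 and 24.5 CPM in NAMPT flox Cre. For each of the 4 genes the Cre libraries of NFKBIZ flox were all below those of LDHA and NAMPT flox, with and without IL-1b. Whether the Cre preparations differed was not tested, and the cancelling of a common virus effect is not shown by these data.

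The keratin genes Krt8 and Krt18, both chosen after their values were seen, were higher after Cre in LDHA and NAMPT flox than in NFKBIZ flox. Krt8 was at 0.344 and 0.0869 CPM in NFKBIZ flox Cre, against 32.5 and 28.6 CPM in LDHA flox Cre and 38.7 and 39.2 CPM in NAMPT flox Cre. Its partner Krt18 was at 0.430 and 0.696 CPM, against 62.7 and 52.9 CPM and 79.8 and 73.3 CPM. In the GFP libraries with IL-1b both keratins were at 1.56 CPM or less in all 3 lines. The Cre effects of the integrin gene Itga3, also chosen after its values were seen, were 0.88 in NFKBIZ flox, 2.96 in LDHA flox and 3.28 in NAMPT flox.

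**Figure D4:**
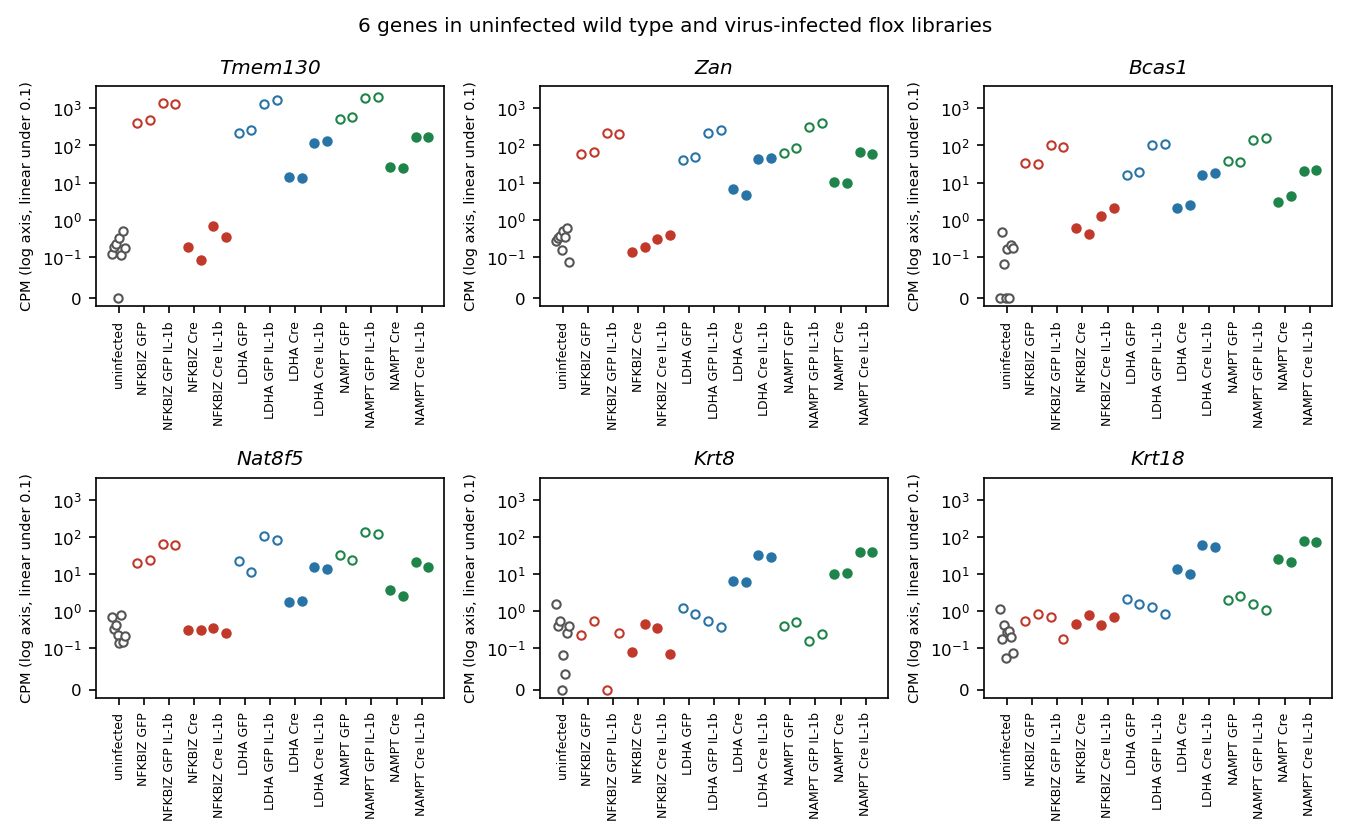
Levels in CPM (log axis, linear under 0.1) of Tmem130, Zan, Bcas1, Nat8f5, Krt8 and Krt18 in the 8 uninfected wild-type libraries (grey) and the 24 libraries of the 3 floxed lines, open for GFP and filled for Cre. In the first 4 panels the filled red points of NFKBIZ flox lie near the grey points, while the filled blue and green points lie above them, and in the keratin panels only the filled blue and green points stand above the rest.

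Without IL-1b the same line difference, fitted on the other 12 floxed libraries, was called for 442 of 15460 genes (2.86%), with 227 higher (1.47%) and 215 lower (1.39%). Of the 215 lower genes, 190 (88.4%) were also lower with IL-1b, and of the 227 higher genes, 206 (90.7%) were also higher. These genes were in turn 7.66% of the 2479 lower and 8.12% of the 2538 higher genes that were tested in both, and the 2 fits share no library. Leaving out NFKBIZ flox GFP replicate 1, NFKBIZ flox GFP replicate 2 or NFKBIZ flox Cre replicate 2 reduced the 442 to 265, 155 and 249. Of 19 acute-phase and complement genes tested, 3 were higher and 1 lower without IL-1b. The acute-phase genes described above were not called. Lcn2 was between 17.3 and 37.0 CPM in all 12 unstimulated libraries and its line difference was -0.03 ± 0.12 (SE). The line differences without IL-1b were -0.30 ± 0.15 (SE) for Chil1, 0.05 ± 0.34 (SE) for Hp, 0.36 ± 0.30 (SE) for Saa3 and 0.42 ± 0.62 (SE) for Steap4, and none was called. Of the 34 cartilage matrix genes, 11 were higher and none lower also without IL-1b, with a median of 0.37, where 1.47% of all genes were higher. Among them Ucma had a line difference of 0.67 and Col27a1 one of 0.55. Matn3, which was not called, was at 376 and 373 CPM with GFP and 374 and 369 CPM with Cre in NFKBIZ flox, and its line difference was 0.18 ± 0.10 (SE). Tmem130 kept a line difference of -7.35 ± 0.29 (SE) and Zan one of -5.68, as did the deleted genes Ldha with 1.53 and Nampt with 1.75. Mmp13 was higher by 0.94 ± 0.09 (SE) also without IL-1b, where its Cre libraries were at 50.2 and 48.3 CPM in NFKBIZ flox, 33.6 and 31.8 CPM in LDHA flox and 18.1 and 16.3 CPM in NAMPT flox.

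The line differences with and without IL-1b were compared over all 24 floxed libraries. They differed for 1785 of 16727 genes (10.7%), with 937 higher (5.6%) and 848 lower (5.07%) with IL-1b. For Lcn2 the change was -3.70 ± 0.20 (SE, adjusted p = 2.54e-10), for Chil1 -2.97 ± 0.17 (SE) and for Hp -2.69 ± 0.26 (SE). Matn3 changed by 2.63 ± 0.14 (SE) and Tnfrsf11b by 3.32 ± 0.15 (SE). Tmem130, with -0.46 ± 0.69 (SE, adjusted p = 0.787), and Mmp13, with -0.08 ± 0.20 (SE, adjusted p = 0.86), were not called. Nos2 and Il6, almost absent without IL-1b, were not called either, with SEs of 1.37 and 0.76. Of the 34 cartilage matrix genes, 16 were higher and none lower in this comparison, of the 23 glycolysis genes 10 were lower and none higher, and of the 13 genes known to need IκB-ζ 3 were lower.

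**Figure D5:**
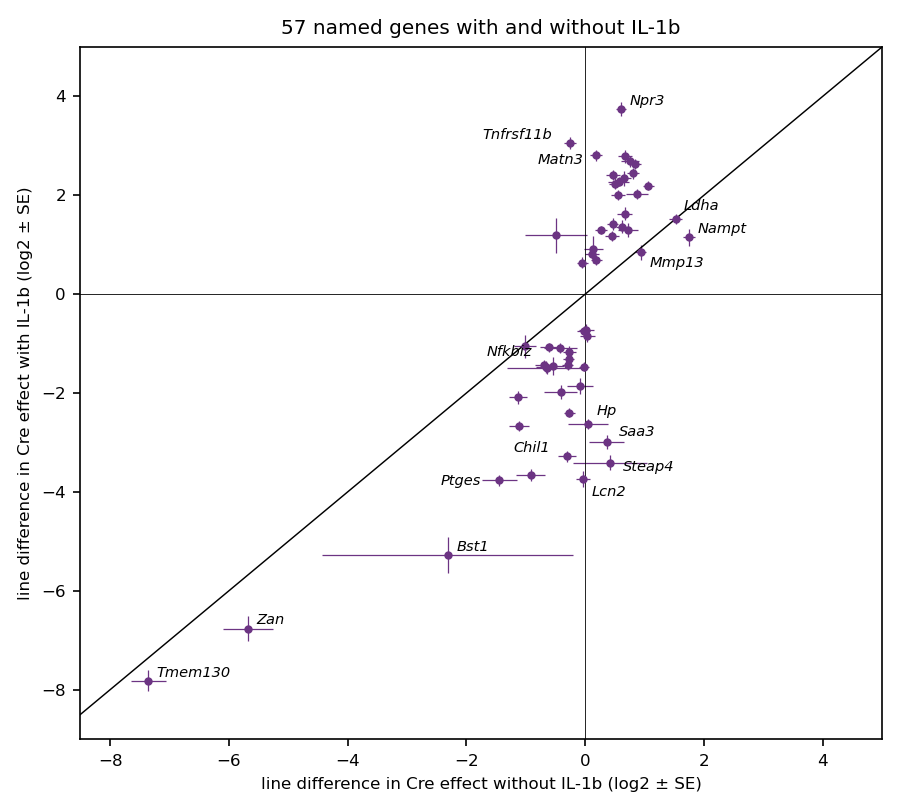
Line difference of 57 named genes tested in both settings, without IL-1b on the horizontal axis and with IL-1b on the vertical axis (log2, bars are SE, the diagonal marks equal values). Lcn2, Saa3, Hp, Chil1 and Steap4 lie near 0 on the horizontal axis and between -2.62 and -3.74 on the vertical axis, while Tmem130 and Ldha lie near the diagonal.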

How the data were processed

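Ribosomal RNA-depleted libraries (KAPA Ribo-Erase) of mouse sternal chondrocytes were compared. Per the labels, the authors aligned reads to GRCm38 with STAR (2.0.4b) and counted them with featureCounts (1.45), and no strand setting is given. The deposited counts per gene were raw and were used for all tests. The deposited CPM equalled count over library total, and neither it nor the RPKM values that the authors deposited were used in a test. Gene names came from the GENCODE mouse release M21, which matched 40340 of 41388 identifiers.

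Counts were fitted with edgeR (4.0.16, R 4.3.3) quasi-likelihood tests on the 12 IL-1b libraries of floxed cells after TMM scaling, leaving out 355 rRNA genes and genes at or under 1 CPM in every library. The same fit was made on the 12 libraries without IL-1b, and all 24 were fitted together for the difference between both. P-values were adjusted by Benjamini-Hochberg over all genes tested. Library totals were between 15830658 and 36421810 counts, and SEs include the spread between libraries. Alternatives used DESeq2 (1.42.0), limma-voom (3.58.1), other filters and scalings, the library set as a covariate, and each library left out.

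Members and gene lists were chosen with earlier results of these data known. Named genes were the targeted genes, Il6 and Mmp13, the 10 lower and 10 higher genes of smallest p, and the 3 of smallest p in each list. Krt8, Krt18, Itga3, Bcas1 and Nat8f5 were chosen after their values were seen, and some results are not reported here. Replicate numbers follow the library set in LDHA and NAMPT flox and accession order in NFKBIZ flox. The deviations of same-numbered GFP and Cre libraries with IL-1b correlated at 0.43 in LDHA flox, 0.48 in NAMPT flox and -0.012 in NFKBIZ flox, so that the numbers do not pair all samples. The wild-type libraries served only as uninfected cells.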

Additional observations from a re-analysis of the deposited data

Results flagged for a closer look

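The line difference itself differed with and without IL-1b for 1785 genes by edgeR's quasi-likelihood test of that difference. Values are the line difference with IL-1b minus that without, on the log2 scale, for the genes described here in which this test was called. Among Nfkbiz and the inflammatory genes it was -0.73 for Nfkbiz, -3.70 for Lcn2, -3.37 for Saa3, -2.69 for Hp, -3.87 for Steap4, -2.97 for Chil1, -2.32 for Ptges, -0.95 for Ptgs1, -0.80 for Cx3cl1 and -1.78 for Irak3. Among genes of glycolysis, NAD use and the NRF2 response it was -1.14 for Pfkp, -1.43 for Pfkfb3, -0.72 for Sirt2, -1.03 for Srxn1, -0.89 for Gsr and -0.73 for Tkt. Other genes that were lower with IL-1b had values of -2.74 for Pcdh1, -2.13 for Fam20c, -1.54 for Nectin2, -1.56 for Adamts7, -0.90 for Mmp2 and -0.91 for Plk3. Among genes of matrix, chemokines and receptors that were higher with IL-1b it was 2.63 for Matn3, 2.13 for Ucma, 1.47 for Col27a1, 1.72 for Fbn2, 1.80 for Sulf1, 1.70 for Mmp16, 3.15 for Npr3, 3.32 for Tnfrsf11b, 1.17 for Il1rl1 and 0.97 for Cxcl12. Genes of the cell cycle, the p53 response and the integrated stress response had values of 0.74 for Cdc20, 0.76 for Ccna2, 0.70 for Gtse1, 0.69 for Polk, 1.04 for Trib3, 0.97 for Nupr1 and 0.50 for Mthfd2. The remaining higher genes had values of 1.94 for Fat4, 1.95 for H19, 1.64 for Sorbs2, 1.14 for Mest and 1.74 for Unc5c.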

How the results depend on the processing

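Counts called were 5231 for the line difference with IL-1b, 3338, 5379 and 7329 for the Cre effects of NFKBIZ, LDHA and NAMPT flox, 442 for the line difference without IL-1b and 1785 for the change between both. A minimum of 2-fold left 2065, 1054, 1887, 2745, 130 and 864 in that order. The second library set alone, with 1 library per group in LDHA and NAMPT flox that is assumed to vary like the rest, gave 2743, 2208, 1925, 3549, 89 and 506. The median line difference of prostaglandin and nitric oxide genes was then -1.82 and that of glycolysis genes -0.50, beside -1.90 and -0.47 in all libraries. With LDHA flox as the only reference 129 were called without IL-1b and 872 for the change, and Nampt turned to -0.44. With NAMPT flox as the only reference Ldha turned to -0.46. Each gene is then compared with a line in which it was not deleted. Calls against both lines singly, chosen after seeing the data, numbered 3137. Without IL-1b no filter on low counts gave 722 and the library set as covariate 820, and the cause was not tested. Leaving out each library gave 3737 to 5328, 2112 to 4311, 3759 to 6147, 5546 to 8000, 155 to 423 and 1263 to 2055. With a replicate block the counts were 5632, 3799, 5833, 7672, 511 and 2277, all within 1.5 times. DESeq2 called 5058 and limma-voom 4633 with IL-1b. Of 60 genes that the naming rule chose, 56 kept their direction and call under all 24 alternatives, the others being Ldha, Nampt, Parp14 and Ifit2. Most of the genes that the naming rule chose were taken for their small p in this same contrast. The alternatives also reuse its libraries, so that their stability is no separate evidence. With 2 libraries per group a gene that was not called may still differ, and genes near 1 CPM rest on few reads.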
